A study of Mus musculus with 59 samples.

Results

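B3galt2, Pgrmc1 and Maged2 were 3 of the 55341 genes counted in mouse brown adipose tissue, and they were chosen by name because their RNA was lower in wild-type mice after thyroid hormone than in hypothyroid mice. The values that chose them are therefore those of the wild-type hormone time course, which are given as a description with no test. The 3 genes were tested only in comparisons between mice that took no part in that choice, namely BATKO mice given hormone, and CTRL and BATKO mice kept at different temperatures or on different diets. Other genes are given with tests in the wild-type hormone mice too. All 3 genes passed the filter on low counts in every comparison.

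RNA was sequenced from brown adipose tissue of male C57BL/6J mice aged 8 to 12 weeks, 59 mice in all, in 3 experiments that were counted and normalised separately. In the hormone experiment (30 mice), WT and BATKO mice were made hypothyroid with propylthiouracil (PTU), an inhibitor of hormone synthesis. WT mice were examined under PTU alone (WT PTU) or 3 h, 6 h, 12 h and 24 h after thyroid hormone (PTU+TH), 4 mice each, and BATKO mice under PTU or 24 h after TH, 5 mice each. In the temperature experiment (16 mice), CTRL and BATKO mice were kept at 4°C (3 CTRL, 4 BATKO) or 30°C (4 CTRL, 5 BATKO), and in the diet experiment (13 mice) on Chow (4 CTRL, 2 BATKO) or HFD (4 CTRL, 3 BATKO). The label of the cold experiment's counts names 24 h and that of the diet experiment's counts names 3.5 days. Neither the labels nor the text of the study says which gene is changed in BATKO mice, how it was deleted or in which cells, so BATKO is used here as a name only. The hormone experiment held WT but no CTRL mice, so genotype there cannot be told apart from the set of mice.

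Thyroid hormone acts mainly through nuclear receptors that sit on chromatin with and without ligand. Many genes rise when hormone binds, among them Hr, which encodes a transcription cofactor, and others fall by routes that are less well understood. Brown adipose tissue burns lipid to make heat through the uncoupling protein Ucp1, and it answers to both thyroid hormone and cold. B3galt2 encodes a Golgi enzyme that adds galactose to N-acetylglucosamine at the ends of sugar chains on glycoproteins and glycolipids. Pgrmc1 encodes a heme-binding membrane protein of the cytochrome b5-like MAPR family that associates with cytochromes P450 and with sterol metabolism. Maged2 encodes an X-linked member of the MAGE family that is known in the kidney for keeping sodium chloride cotransporters at the cell surface through the stimulatory G protein Gs-alpha and the chaperone HSP40.

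On the GRCm38 assembly, B3galt2 (ENSMUSG00000033849.3) lies at chr1:143640664-143654614 on the plus strand, with 1 annotated transcript and 9288 exonic bases. It sits inside the larger gene Cdc73 on the opposite strand, and 679 of its exonic bases are also exonic in Cdc73. Pgrmc1 (ENSMUSG00000006373.10) lies at chrX:36598206-36606079 on the plus strand, with 1857 exonic bases and Akap17b 2235 bases away on the opposite strand. Maged2 (ENSMUSG00000025268.15) lies at chrX:150806370-150814345 on the minus strand, with 10 annotated transcripts, 3239 exonic bases and the small nucleolar RNA gene Gm24907 in an intron. Because the strand setting of the counting is not given in the sources used here, the handling of reads from the shared stretch is unknown.

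The start site regions of the 3 genes are printed here because the genes were lower together after hormone, and a reader may wish to look for receptor elements in them. Each is 300 bases long, lies mostly upstream of a RefSeq start site on GRCm38.p6 and is written 5′ to 3′ along the gene's strand, with Maged2 shown at the outermost of its 4 start sites. Capitals mark the letters TGACG, the half-site of the cAMP response element, which lies on the opposite strand in Maged2. They also mark the E-box of B3galt2, with the letters CACGTG. In Maged2 the capitals further upstream mark a TATA box, TATAAA.
B3galt2, chr1:143640447-143640746: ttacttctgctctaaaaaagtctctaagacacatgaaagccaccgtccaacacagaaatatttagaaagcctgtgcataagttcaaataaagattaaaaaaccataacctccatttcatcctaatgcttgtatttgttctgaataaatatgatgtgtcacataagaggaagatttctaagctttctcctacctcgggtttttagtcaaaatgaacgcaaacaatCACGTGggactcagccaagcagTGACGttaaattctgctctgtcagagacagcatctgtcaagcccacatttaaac
Pgrmc1, chrX:36597943-36598242: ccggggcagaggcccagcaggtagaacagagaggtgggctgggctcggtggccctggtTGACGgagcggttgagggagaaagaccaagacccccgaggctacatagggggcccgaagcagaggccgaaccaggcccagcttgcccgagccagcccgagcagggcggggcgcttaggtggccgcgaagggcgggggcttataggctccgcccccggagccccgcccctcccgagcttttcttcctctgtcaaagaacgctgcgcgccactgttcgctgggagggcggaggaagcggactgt
Maged2, chrX:150814296-150814595: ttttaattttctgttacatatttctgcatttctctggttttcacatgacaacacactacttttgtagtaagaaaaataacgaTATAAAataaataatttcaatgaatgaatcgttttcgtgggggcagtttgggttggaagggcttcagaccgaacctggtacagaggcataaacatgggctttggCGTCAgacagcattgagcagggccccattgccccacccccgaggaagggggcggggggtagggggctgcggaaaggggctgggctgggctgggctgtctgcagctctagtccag

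The letters AGGTCA, the half-site of the thyroid hormone receptor element, were found on neither strand of these windows nor in the other 3 windows of Maged2, and 16.3% of 32851 RefSeq mouse promoter windows of the same length hold them. The DR4 element, which is that half-site repeated directly with a spacer of 4 bases, was likewise absent from the windows of the 3 genes and occurred in 0.0152% of all windows. TGACG was found in all 3 printed windows, at -4 in B3galt2, -192 in Pgrmc1 and -64 in Maged2 relative to the start site, and in 20.8% of all windows, while the full palindrome TGACGTCA, held by 1.79%, was found in none of the 3. The E-box of B3galt2 began at -26 (7.15% of all windows hold one) and the TATA box of Maged2 at -168 (13.6% of all windows). Neither TGACG nor TATAAA was found in the other 3 windows of Maged2, so both matches depend on the start site printed. The windows differed in base composition. B3galt2 had 37.7% G and C and 5 CpG dinucleotides, Pgrmc1 had 69% and 24, and the printed window of Maged2 had 49% and 8. These matches describe letters in short windows only, and receptor binding was not analysed here.

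Total counts per mouse ranged from 7805938 to 18073627 in the hormone experiment, from 8008348 to 12887313 in the temperature experiment and from 7612059 to 11533900 in the diet experiment. Hr rose in every WT mouse given hormone, from 0.690 to 1.41 normalised counts scaled to a library of 1000000 counts (CPM) under PTU to 21.0 to 30.4 CPM at 24 h. In BATKO mice it was 0.832 to 3.78 CPM under PTU and 0.870 to 4.62 CPM at 24 h, with overlapping ranges. The summed level of 8 brown adipocyte markers, Ucp1 included, was 9720 to 11470 CPM in WT PTU mice and 3653 to 4514 CPM in BATKO PTU mice, and without Ucp1 5085 to 5352 CPM and 2707 to 3107 CPM. No marker was at 0 in any of these groups. Summed skeletal muscle markers varied widely between mice of a group, from 0.719 to 4600 CPM among CTRL 30°C mice.

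B3galt2 fell furthest of the 3 genes after hormone, and at 12 h no other gene tested had a larger decrease. In WT PTU mice its level was 215, 308, 197 and 208 CPM. At 3 h the 4 mice had 44.1, 52.0, 58.5 and 21.7 CPM, and at 6 h they had 30.2, 27.2, 17.0 and 12.4 CPM. At 12 h the level was 4.51, 5.38, 5.92 and 3.67 CPM, and at 24 h it was 5.05, 10.4, 15.0 and 15.7 CPM. Every hormone-treated WT mouse was below every WT PTU mouse at each time, while the 12 h and 24 h groups overlapped each other. The mean went from 232 ± 51.4 CPM (SD, n = 4) under PTU to 4.87 ± 0.989 CPM (SD, n = 4) at 12 h, and the fitted fold between these groups was 46.9. On the log2 scale the fitted difference from WT PTU was -2.42, -3.44, -5.55 and -4.31 for the 3 h, 6 h, 12 h and 24 h groups. Of 13003 genes tested in WT mice, 11, 1, 0 and 2 had a lower fold change than B3galt2 in the same groups. These comparisons chose the gene, so the share of all genes called lower, which was 4.09%, 10.9%, 12.1% and 15.5% in that order, is given for scale only. In whole tissue, fewer cells of a type and less RNA per cell cannot be told apart. Brown adipocyte markers moved in both directions in WT mice after hormone. Of the 8, 2 rose and 3 fell at 12 h and again at 24 h, with median log2 differences of -0.03 and 0.02. Ucp1 rose by 1.32 at 12 h (adjusted p = 7.77e-05), and the adipokine gene Adipoq fell by 0.70 at 12 h (adjusted p = 0.000185) and by 2.13 at 24 h (adjusted p = 1.18e-10, edgeR's quasi-likelihood test). Without Ucp1, the other 7 markers summed to 5085 to 5352 CPM under PTU, 4773 to 6001 CPM at 3 h, 5072 to 5808 CPM at 6 h, 4108 to 4559 CPM at 12 h and 3320 to 4016 CPM at 24 h, below the PTU range in every mouse at 12 h and 24 h. Endothelial markers summed to 343 to 350 CPM under PTU, 364 to 392 CPM at 3 h and 272 to 339 CPM at 12 h, and overlapped the PTU range in the 6 h and 24 h mice. Of 6 fibroblast and preadipocyte markers, 2 fell at 12 h (median log2 difference -0.33), where 12.1% of all genes were called lower. Their sums overlapped, at 106 to 154.5 CPM under PTU and 77.6 to 134 CPM at 12 h. Of 5 Schwann cell and nerve markers tested, 1 fell at 12 h and 1 at 24 h. None of 4 immune cell markers tested passed at 12 h (median -0.65), and 1 rose at 24 h. At 24 h 17.2% of all genes were called higher and 15.5% lower. The part of these markers in the lower level of the 3 genes was not tested.

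**Figure D1:**
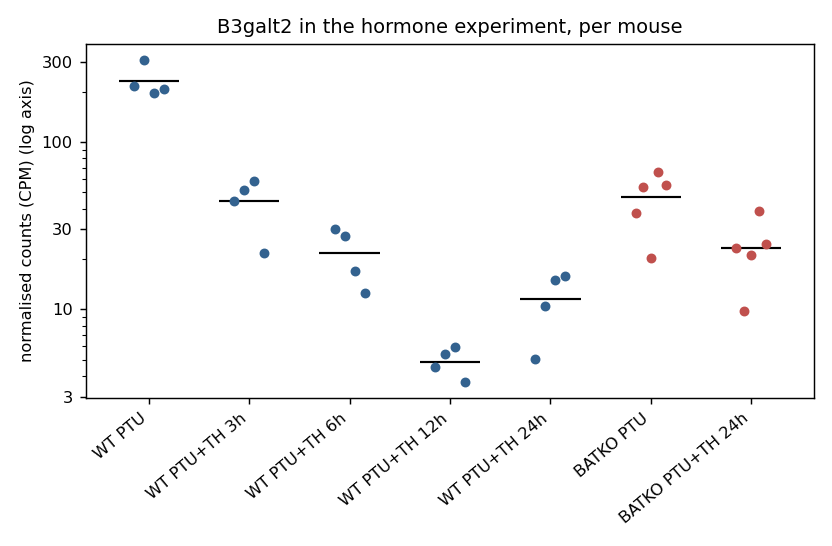
B3galt2 in CPM (log axis) in each mouse of the 7 groups of the hormone experiment. Blue points are WT mice, red points BATKO mice and black lines group means; the WT means go from 232 under PTU to 4.87 at 12 h after hormone and the BATKO means from 46.7 to 23.4 at 24 h.

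The host gene Cdc73, which encodes a subunit of a transcription elongation complex, differed less and passed the test at none of the 4 times. Its level was 36.6 ± 4.10 CPM (SD, n = 4) in WT PTU mice and 30.1 ± 2.94 CPM (SD, n = 4) at 12 h, a log2 difference of -0.27 (adjusted p = 0.137, edgeR's quasi-likelihood test). The difference was -0.20 at 3 h (adjusted p = 0.34), -0.25 at 6 h (adjusted p = 0.17) and -0.32 at 24 h (adjusted p = 0.0664). Per kilobase of exonic length, B3galt2 was at 25.0 CPM per kb in WT PTU mice and 0.525 CPM per kb at 12 h, against 2.08 CPM per kb for Cdc73 under PTU. Of 16 other β1,3-glycosyltransferase genes listed, 6 were tested in WT mice, and at 24 h 1 rose and 2 fell, with a median log2 difference of -0.17 against 0.01 over all genes tested, of which 17.2% were called higher and 15.5% lower at that time. B3galt6, which builds the linker of proteoglycans, fell by 0.72 (adjusted p = 0.00133), C1galt1, the core 1 O-glycan galactosyltransferase, fell by 0.57 (adjusted p = 0.000762), and B3gnt3, an N-acetylglucosaminyltransferase, rose by 0.69 (adjusted p = 0.00428), all on the log2 scale in the same test.

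Pgrmc1 was lower after hormone by a smaller amount than B3galt2, and its lowest mean came at 24 h. Its level in WT PTU mice was 141, 140, 105 and 139 CPM. At 3 h it was 102, 99.3, 98.2 and 101 CPM, at 6 h 85.7, 110, 99.0 and 95.2 CPM, at 12 h 93.5, 74.7, 68.5 and 59.8 CPM, and at 24 h 66.1, 72.7, 60.6 and 57.9 CPM. The 6 h mice overlapped the PTU mice because 1 of the PTU mice, B4, was at 105 CPM, and at 3 h, 12 h and 24 h the ranges were separate. The mean went from 131 ± 17.5 CPM (SD, n = 4) under PTU to 64.4 ± 6.56 CPM (SD, n = 4) at 24 h, and the log2 difference from WT PTU was -0.41, -0.44, -0.81 and -1.03 in the same order of times. At 24 h 466 of the 13003 genes had a lower fold change, so the decrease of Pgrmc1 was not among the strongest in size. Per kilobase it was the most abundant of the 3, at 70.7 CPM per kb under PTU and 34.6 CPM per kb at 24 h.

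Of the other 3 MAPR genes, Pgrmc2, the closest relative of Pgrmc1, fell by 0.76 on the log2 scale at 3 h (adjusted p = 0.00426) and by 1.43 at 24 h (adjusted p = 1.16e-06, edgeR's quasi-likelihood test). Pgrmc2 was at 99.7 ± 10.8 CPM (SD, n = 4) under PTU and 37.0 ± 2.62 CPM (SD, n = 4) at 24 h. Nenf, which encodes the secreted neudesin, rose by 1.18 at 24 h (adjusted p = 5.55e-08), and Cyb5d2 had a log2 difference of 0.11 (adjusted p = 0.426). Of 8 heme synthesis enzymes, 1 fell at 24 h and none rose, with a median log2 difference of 0.07, beside 17.2% of all genes called higher and 15.5% lower. The one that fell was Ppox, by 0.32 (adjusted p = 0.0425). Among 7 sterol and cytochrome P450 partners of Pgrmc1, 2 rose and 1 fell at 24 h against the same shares, with a median of 0.11. Tmem97, the sigma-2 receptor, rose by 1.08 (adjusted p = 0.000644), and Insig1, which holds back sterol synthesis, fell by 1.31 (adjusted p = 0.000116).

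Maged2 was lowest at 12 h and, per kilobase of exonic length, was the least abundant of the 3 genes in each WT group, with 0.906 CPM per kb under PTU. Its level in WT PTU mice was 3.22, 2.37, 3.86 and 2.29 CPM. At 3 h it was 2.91, 3.08, 2.38 and 1.58 CPM, at 6 h 1.48, 2.22, 1.54 and 1.81 CPM, at 12 h 0.967, 1.43, 0.871 and 0.980 CPM, and at 24 h 1.52, 1.92, 1.41 and 1.65 CPM. The 3 h mice overlapped the PTU mice and the later groups did not. The mean went from 2.94 ± 0.749 CPM (SD, n = 4) to 1.06 ± 0.249 CPM (SD, n = 4) at 12 h, and the log2 difference from WT PTU was -0.28, -0.78, -1.48 and -0.87 in the same order of times. The 12 h values rest on 8 to 13 counts per mouse, so their counting error is large. At 12 h 213 genes and at 24 h 667 genes had a lower fold change than Maged2.

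Of 8 other MAGE genes listed, 5 were tested, and at 24 h 1 rose and 2 fell, beside 17.2% of all genes called higher and 15.5% lower, with a median log2 difference of -0.34. Maged1, the nearest relative of Maged2, fell by 0.80 (adjusted p = 0.000114, edgeR's quasi-likelihood test) and went from 84.5 ± 10.1 to 48.7 ± 8.05 CPM (SD, n = 4 each). Magee1 fell by 0.70 (adjusted p = 0.0181) and Ndn, which encodes the growth suppressor necdin, rose by 0.84 (adjusted p = 0.000361). Of the 2 partners of Maged2 that were tested, Gnas, which encodes Gs-alpha, rose by 0.55 at 24 h (adjusted p = 0.000167), and the HSP40 gene Dnajb1 had a log2 difference of 0.79 (adjusted p = 0.0738).

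**Figure D2:**
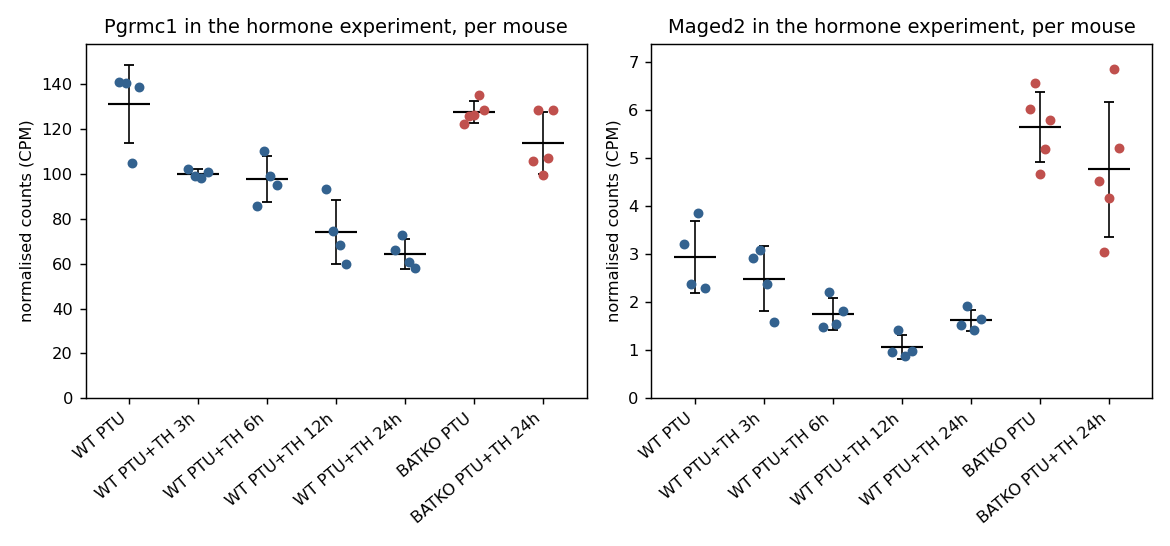
Pgrmc1 (left) and Maged2 (right) in CPM in each mouse of the hormone experiment, WT in blue and BATKO in red, with the group mean and SD in black. Pgrmc1 had its lowest WT mean at 24 h (64.4) and Maged2 at 12 h (1.06), while Maged2 was above its WT PTU mean of 2.94 in both BATKO groups.

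In BATKO mice no decrease of the 3 genes passed the test 24 h after hormone. B3galt2 was at 37.9, 53.9, 20.2, 66.2 and 55.4 CPM in BATKO PTU mice and at 23.1, 9.81, 21.0, 38.5 and 24.4 CPM after hormone, with overlapping ranges. The log2 difference was -1.0 (SE 0.32, 95% interval -1.65 to -0.35, unadjusted p = 0.00393, adjusted p = 0.963 over 14178 genes, edgeR's quasi-likelihood test), and 38 of these genes had a lower fold change. Pgrmc1 differed by -0.17 (95% interval -0.38 to 0.05) and Maged2 by -0.25 (95% interval -0.63 to 0.13), both with an adjusted p of 0.963. The filter and the estimate of spread in this fit also drew on the 20 WT mice that chose the genes. Fitted over the 10 BATKO mice alone, the log2 differences were -1.0, -0.16 and -0.25 for B3galt2, Pgrmc1 and Maged2, each with an adjusted p of 0.944. Of all genes tested, 0% were called: 0 of 14178 with edgeR and 0 with DESeq2, and 673 had an unadjusted p under 0.05 with edgeR. WT mice showed -4.31, -1.03 and -0.87 for B3galt2, Pgrmc1 and Maged2 at the same time; the difference between the genotypes was not tested, since the WT values chose the genes.

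Before hormone, the genes differed between the 2 genotypes in different directions. B3galt2 was lower in every BATKO PTU mouse (20.2 to 66.2 CPM) than in every WT PTU mouse (197 to 308 CPM), a 4.96-fold difference between the means. Maged2 was higher in every BATKO PTU mouse, at 6.02, 6.55, 4.67, 5.20 and 5.79 CPM, than in every WT PTU mouse (2.29 to 3.86 CPM). Pgrmc1 overlapped, at 122 to 135 CPM in BATKO PTU mice. These differences were not tested, since the WT PTU values took part in choosing the genes. The brown adipocyte markers were also lower in BATKO PTU mice, by the values given above, and the endothelial markers summed to 412 to 468 CPM against 343 to 350 CPM in WT PTU mice; their part in these differences was not tested.

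**Figure D3:**
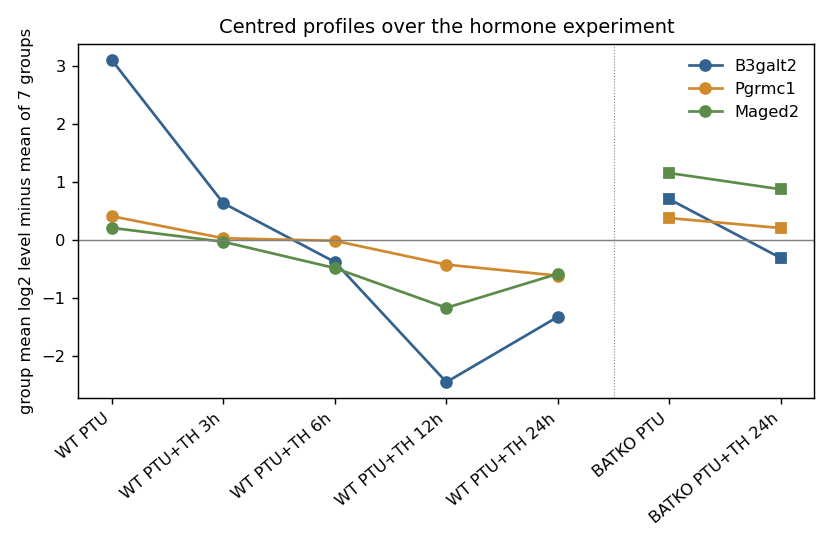
Group mean log2 level of B3galt2, Pgrmc1 and Maged2 in each group of the hormone experiment, minus the gene's mean over the 7 groups. Circles joined by lines are the WT groups and squares the BATKO groups; B3galt2 spans from 3.10 in WT PTU to -2.44 in WT mice at 12 h.

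The genes whose profile over the 7 groups of the hormone experiment lay nearest to each member are given by the root mean square distance of centred log2 levels. Nearest to B3galt2 were D430020J02Rik (0.766), Adrb3 (0.779), Triqk (0.780), Hcar2 (0.80) and Gpat3 (0.823), against a median of 1.68 over 14177 genes. Adrb3 encodes the β3-adrenergic receptor through which noradrenaline drives brown adipocytes, Hcar2 encodes a receptor that restrains lipolysis, and Gpat3 encodes an acyltransferase of triglyceride synthesis. Nearest to Pgrmc1 were Agbl5 (0.0722), 1700056E22Rik (0.0874), 9230116N13Rik (0.101), Gm8258 (0.117) and Aqp7 (0.123), the last of them the glycerol channel of adipocytes, against a median of 0.541. Nearest to Maged2 were Cavin1 (0.140), Angptl4 (0.154), Rnf122 (0.171), Nans (0.179) and Galnt18 (0.180), against a median of 0.855. Cavin1 is a coat protein of caveolae and Angptl4 an inhibitor of lipoprotein lipase. These distances rest on 7 group means that share the same mice and carry no test.

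Cold lowered B3galt2 and Maged2 in CTRL mice and left Pgrmc1 within the spread between mice. B3galt2 was at 14.8, 13.8, 11.3 and 9.91 CPM in CTRL 30°C mice and at 0.339, 0.369 and 4.62 CPM in CTRL 4°C mice, which rest on 3, 3 and 43 counts. All 3 cold mice were below all 4 warm mice, and mouse 5 stood apart from the other cold mice. The log2 difference was -2.77 (SE 0.73, adjusted p = 0.00474, edgeR's quasi-likelihood test); without mouse 5 it was -5.11, a value that rests on 3 counts in each remaining cold mouse, and adjusted p was 0.000248. Maged2 was at 2.24, 4.00, 3.57 and 3.69 CPM at 30°C and 1.24, 1.84 and 1.18 CPM at 4°C, again without overlap, a log2 difference of -1.25 (SE 0.29, adjusted p = 0.00215). Pgrmc1 was at 46.7 to 57.4 CPM at 30°C and 44.8 to 62.2 CPM at 4°C, a log2 difference of 0.03 (95% interval -0.33 to 0.39, adjusted p = 0.894). Cold moved much of the transcriptome in CTRL mice, with 49.1% of 13267 genes called and 22.6% called lower, so 2 of 3 genes called lower is a small count against a wide background. In size, 176 genes had a lower fold change than B3galt2 and 1268 a lower one than Maged2.

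Markers moved with temperature too. Brown adipocyte markers summed to 18710 to 24330 CPM in CTRL 4°C mice, lowest in mouse 5, against 2731 to 4864 CPM in CTRL 30°C mice. Without Ucp1 they summed to 5299 to 7143 CPM and 2584 to 3563 CPM. Schwann cell and nerve markers summed to 198 to 235 CPM at 4°C against 106 to 132 CPM at 30°C. Fibroblast and preadipocyte markers summed to 140 to 162 CPM at 4°C and 164 to 256 CPM at 30°C, and immune cell markers to 23 to 31.0 CPM and 36.8 to 66.4 CPM. No marker of these lists was at 0 in every mouse of either group, and their part in the lower B3galt2 and Maged2 was not tested. The host gene Cdc73 fell by 0.44 on the log2 scale (adjusted p = 0.0429).

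**Figure D4:**
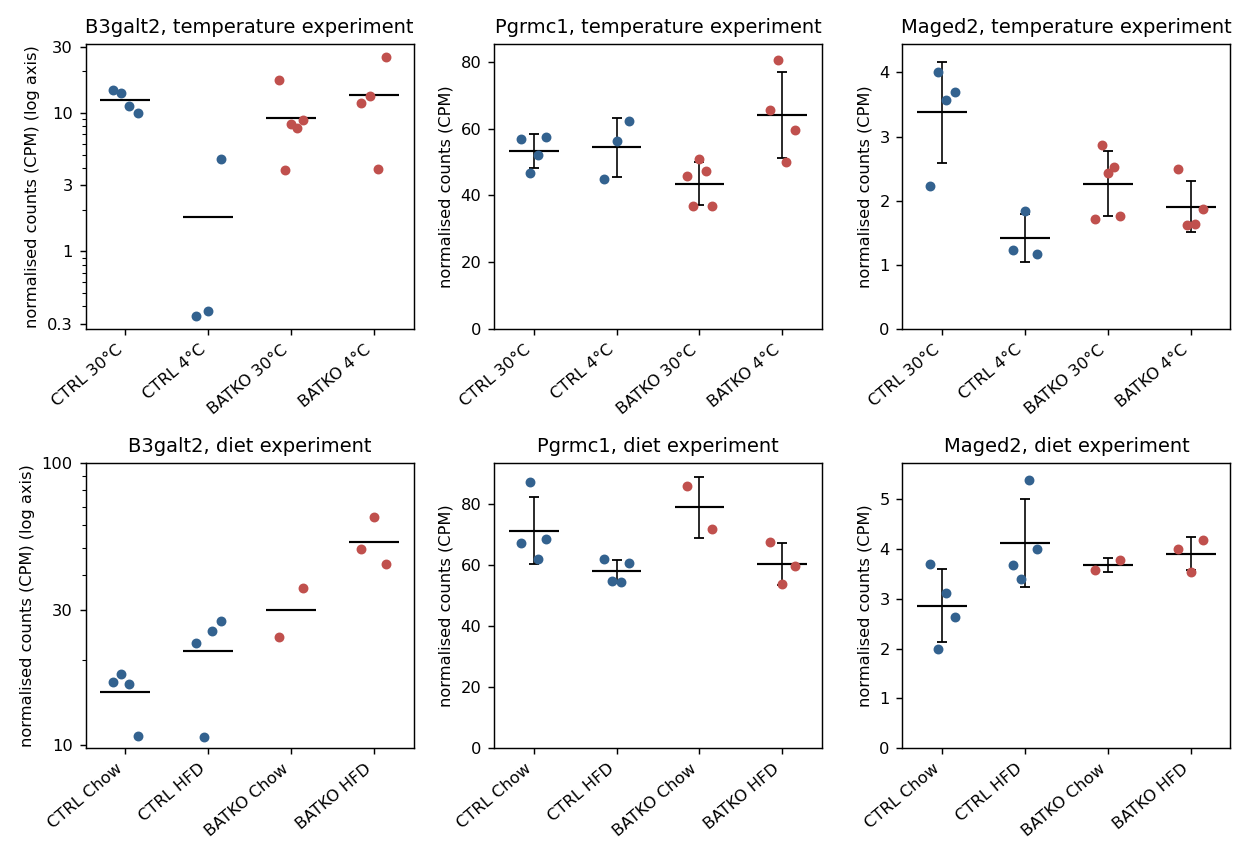
B3galt2 (log axis), Pgrmc1 and Maged2 in CPM in each mouse of the temperature experiment (upper panels) and the diet experiment (lower panels), CTRL in blue and BATKO in red. Black lines are group means and, outside the log panels, bars are SD; in CTRL mice at 4°C B3galt2 was at 0.339, 0.369 and 4.62.

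Relatives of the members moved in several directions in the cold CTRL mice. Of the 5 MAGE genes tested, 4 fell and none rose, with a median log2 difference of -0.62 against -0.01 over all genes, of which 26.5% were called higher and 22.6% lower. Magee1 fell by 1.12 (adjusted p = 0.0024), Ndn by 0.97 (adjusted p = 0.00258), Mageh1 by 0.62 (adjusted p = 0.0206) and Maged1 by 0.54 (adjusted p = 0.00758) in edgeR's quasi-likelihood test. Of 7 β1,3-glycosyltransferases, 3 fell and 1 rose (median -0.31), and B3galnt1, the globoside synthase, fell by 2.38 (adjusted p = 1.75e-05). Of the 3 MAPR relatives of Pgrmc1, 1 rose and 2 fell (median -0.41): Pgrmc2 fell by 0.41 (adjusted p = 0.0408), Cyb5d2 fell by 0.45 (adjusted p = 0.019) and Nenf rose by 1.62 (adjusted p = 3.97e-07). Of 8 heme synthesis enzymes, 5 rose and 1 fell (median 0.47), with Uros up by 1.80 (adjusted p = 2.26e-06), and of 7 sterol and cytochrome P450 partners of Pgrmc1, 4 rose and none fell (median 0.69), with Cyp51, lanosterol demethylase, up by 2.45 (adjusted p = 3.56e-08). Gnas rose by 1.42 (adjusted p = 1.89e-05).

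In BATKO mice Pgrmc1 rose in the cold, while no difference of B3galt2 or Maged2 passed the test. B3galt2 was at 17.4, 3.90, 8.35, 7.77 and 8.94 CPM in BATKO 30°C mice and at 11.8, 13.2, 3.95 and 25.4 CPM in BATKO 4°C mice, with overlapping ranges and a log2 difference of 0.55 (95% interval -0.56 to 1.66, adjusted p = 0.423, edgeR's quasi-likelihood test). Pgrmc1 was at 45.7, 37.0, 51.0, 47.2 and 36.9 CPM at 30°C and 65.6, 80.6, 50.1 and 59.6 CPM at 4°C, a log2 difference of 0.55 (SE 0.15, adjusted p = 0.00671), and 1 cold mouse lay within the range of the warm mice. Brown adipocyte markers without Ucp1 summed to 4542 to 5181 CPM in BATKO 4°C mice and 3113 to 3884 CPM in BATKO 30°C mice, with no overlap, and their part in the higher Pgrmc1 was not tested. Maged2 was at 1.73 to 2.88 CPM at 30°C and 1.62 to 2.49 CPM at 4°C, a log2 difference of -0.23 (adjusted p = 0.471). Of all genes, 40.3% were called and 21.4% called higher, so 1 call among 3 genes is near the background. Among the 5 MAGE genes tested, Ndn alone fell, by 1.61 (adjusted p = 2.06e-05), where 18.9% of all genes were called lower. The median of the 5 was -0.16, and the difference of their cold effect between the genotypes passed the test for 0 of 5. Of 7 β1,3-glycosyltransferases 1 rose and 3 fell in BATKO mice (median -0.62), of 8 heme synthesis enzymes 4 rose and 1 fell (median 0.38), and of 7 sterol and cytochrome P450 partners 4 rose and none fell (median 0.56). None of the 3 MAPR relatives of Pgrmc1 passed the test in BATKO mice (median -0.24), and the difference of the cold effect between the genotypes passed for Nenf, at -1.31 (adjusted p = 0.0115). It passed for no gene of the other 3 lists.

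The genotypes were also compared at each temperature. At 4°C B3galt2 was higher in BATKO than in CTRL mice by 2.90 on the log2 scale (SE 0.73, adjusted p = 0.0484), in a comparison in which 2.16% of genes were called and 0.957% called higher. The ranges overlapped, with BATKO mouse 11 at 3.95 CPM and CTRL mouse 5 at 4.62 CPM, and 19 of 13267 genes had a higher fold change. This call rested on few mice. Without any 1 of the 7 mice the difference stayed between 2.39 and 5.19, but adjusted p exceeded the threshold on leaving out CTRL mouse 1 or 2 (0.179 each) or BATKO mouse 7 (0.0694), 8 (0.0814) or 12 (0.14), and it was 0.123 when only these 2 groups were fitted. Schwann cell and nerve markers summed to 124 to 182 CPM in BATKO 4°C mice against 198 to 235 CPM in CTRL 4°C mice, and brown adipocyte markers without Ucp1 to 4542 to 5181 CPM against 5299 to 7143 CPM, both without overlap. The immune, endothelial, fibroblast and muscle sums overlapped, and the part of these markers in the higher B3galt2 was not tested. At 30°C B3galt2 differed by -0.42 (95% interval -1.53 to 0.69, adjusted p = 0.783), and only 0.00754% of genes, 1 in all, were called. Pgrmc1 and Maged2 were called at neither temperature, with log2 differences of 0.23 and 0.43 at 4°C and of -0.29 and -0.58 at 30°C. The 95% intervals, not adjusted for the number of genes, were -0.12 to 0.59 and -0.20 to 1.07 at 4°C. At 30°C they were -0.60 to 0.02 and -1.07 to -0.08.

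The difference of the cold effect between BATKO and CTRL mice was tested directly. It was 3.32 on the log2 scale for B3galt2 (SE 0.89, 95% interval 1.44 to 5.20, adjusted p = 0.0747), in edgeR's quasi-likelihood test with 1.12% of genes called. In the same test it was 0.52 for Pgrmc1 (95% interval 0.05 to 1.00, adjusted p = 0.217) and 1.01 for Maged2 (95% interval 0.205 to 1.82, adjusted p = 0.163). The intervals are not adjusted for the number of genes tested. No difference of the 3 genes passed the threshold, though for B3galt2 it did so with DESeq2 (adjusted p = 0.0326). Brown adipocyte markers in BATKO mice summed to 11660 to 19260 CPM at 4°C and 3540 to 5056 CPM at 30°C, so their upper range overlapped that of CTRL mice in the cold when Ucp1 was counted.

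No change of the 3 genes on HFD passed the test in either genotype. In CTRL mice B3galt2 was at 16.7, 17.9, 16.4 and 10.8 CPM on Chow and 23, 10.7, 25.4 and 27.5 CPM on HFD, a log2 difference of 0.49 (95% interval -0.05 to 1.02, adjusted p = 0.281, edgeR's quasi-likelihood test). Pgrmc1 was at 61.7 to 87.0 CPM on Chow and 54.4 to 61.8 CPM on HFD (log2 difference -0.30, 95% interval -0.56 to -0.04, adjusted p = 0.174). Maged2 was at 1.99 to 3.71 and 3.39 to 5.39 CPM (0.52, 95% interval 0.05 to 1.00, adjusted p = 0.189). In this comparison 3.94% of genes were called. In BATKO mice B3galt2 differed by 0.80 (95% interval 0.13 to 1.48, adjusted p = 0.257) and Pgrmc1 by -0.39 (95% interval -0.72 to -0.06, adjusted p = 0.261). Maged2 differed by 0.08 (95% interval -0.53 to 0.69, adjusted p = 0.913), with 0.0696% of genes called. The intervals are not adjusted for the number of genes tested. The difference of the diet effect between the genotypes was 0.32 for B3galt2 (95% interval -0.53 to 1.17), -0.09 for Pgrmc1 and -0.44 for Maged2, with adjusted p from 0.955 to 0.985.

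Between genotypes, B3galt2 was higher in BATKO than in CTRL mice on both diets without passing the test over all genes. On HFD it was at 49.6, 64.1 and 43.7 CPM in BATKO mice against 10.7 to 27.5 CPM in CTRL mice, with no overlap and a log2 difference of 1.28 (SE 0.26, 95% interval 0.73 to 1.83, unadjusted p = 0.000187, adjusted p = 0.346, edgeR's quasi-likelihood test). On Chow it was at 24.2 and 35.9 CPM in the 2 BATKO mice against 10.8 to 17.9 CPM in CTRL mice, again with no overlap, a log2 difference of 0.96 (SE 0.30, unadjusted p = 0.00560, adjusted p = 0.384). Neither comparison called any gene: 0% of 12932 passed with edgeR, with 691 genes on HFD and 1024 on Chow at an unadjusted p under 0.05. DESeq2 called 9 genes on HFD, B3galt2 among them (adjusted p = 0.00319), and 33 on Chow without it. Pgrmc1 differed by 0.06 on HFD and 0.15 on Chow and Maged2 by -0.08 and 0.36, with adjusted p from 0.817 to 0.966. On Chow, summed immune cell markers were 97.3 to 126 CPM in BATKO and 34.8 to 41.2 CPM in CTRL mice, fibroblast and preadipocyte markers 281 to 357 CPM and 172 to 216 CPM, and Schwann cell and nerve markers 88.9 to 89.6 CPM and 109 to 147 CPM. On HFD, Schwann cell and nerve markers were 99.8 to 133 CPM in BATKO and 140 to 178 CPM in CTRL mice, and endothelial markers 595 to 673 CPM and 416 to 594 CPM. Brown adipocyte markers overlapped between the genotypes on HFD, at 7388 to 9482 CPM and 6137 to 7758 CPM, and on Chow, at 5010 to 6372 CPM and 4492 to 6456 CPM. Their part in the higher B3galt2 was not tested.

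**Figure D5:**
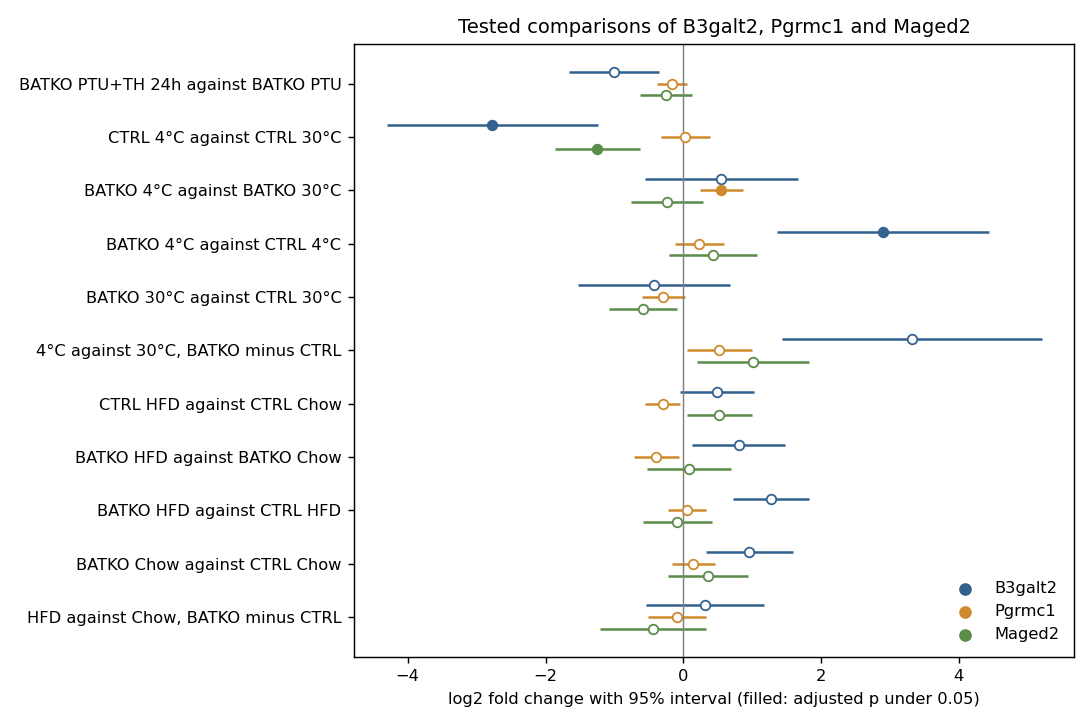
Log2 fold change with its 95% interval for B3galt2, Pgrmc1 and Maged2 in each tested comparison, first group against second. Filled points had an adjusted p under 0.05 over all genes tested: B3galt2 and Maged2 in CTRL mice at 4°C against 30°C, Pgrmc1 in BATKO mice at 4°C against 30°C, and B3galt2 in BATKO against CTRL mice at 4°C.

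Set side by side, the group means of B3galt2 ranged from 232 CPM in WT PTU mice to 1.77 CPM in CTRL 4°C mice. Between them lay 15.5 CPM in CTRL Chow, 12.5 CPM in CTRL 30°C and 4.87 CPM in WT mice 12 h after hormone, and because each experiment was normalised separately these levels were not tested against each other. In order of mean level within the hormone experiment, WT PTU was the only group whose range was separate from the next, BATKO PTU. From BATKO PTU down through WT 3 h, BATKO 24 h, WT 6 h, WT 24 h and WT 12 h, each group's range overlapped that of the next. Pgrmc1 and Maged2 varied much less across the groups of the 3 experiments, from 43.6 to 131 CPM and from 1.06 to 5.64 CPM.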

How the data were processed

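RNA was extracted with Trizol, libraries were made with the Lexogen total RNA SENSE kit and sequenced on an Illumina NextSeq instrument. The authors aligned reads to GRCm38/mm10 with Bowtie (the submitters' processing notes name Bowtie2 2.3.2.2), removed reads of low alignment quality and counted reads per gene with htseqcount; the annotation and strand setting are not given in the sources used here. The deposited values are raw counts per gene and mouse, 1 table per experiment. Gene positions and exonic lengths come from GENCODE vM21 and start site windows from RefSeq, both on GRCm38.

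Here, counts were normalised by TMM within each experiment and tested with edgeR 4.0.16 (quasi-likelihood, R 4.3.3) on genes with a mean normalised count above 10, with Benjamini-Hochberg adjustment over all genes tested and a threshold of 0.05. All groups of an experiment shared 1 fit, except that WT time points were fitted over the 20 WT mice. Fold changes are fitted log2 values, and CPM are TMM-normalised counts scaled to a library of 1000000 counts. DESeq2 1.42.0, other size factors, other filters, fits of the compared groups alone and leaving out each mouse were tried as alternatives. The fitting was tested on simulated data.

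The genes named are the 3 members, genes of lists of their families and partners, their neighbours and the 5 genes nearest to each in profile. They also include Hr, from a check of the hormone response, and Ucp1 and Adipoq, from the brown adipocyte markers. The members and lists were chosen with earlier results of these data known. Mice are separate animals by their labels. Counting precision follows depth: 3 counts in a library is taken as the floor. No column of the tables was left unmatched to a mouse. The values of 1 gene of these lists are not reported here.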

Additional observations from a re-analysis of the deposited data

Results flagged for a closer look

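In WT PTU mice, mouse B3 stood apart for B3galt2, at 308 CPM against 197 to 215 CPM in the other mice of the group, a gap of 0.836 of the group's range. In the same group, mouse B4 stood apart for Pgrmc1, at 105 CPM against 139 to 141 CPM, a gap of 0.939 of the range. All hormone-treated WT mice were below 197 CPM for B3galt2, so its decrease does not depend on mouse B3, while the overlap of Pgrmc1 between PTU and 6 h comes from mouse B4. Of 36 gene and group combinations of 4 or more mice examined, 1.8 would be marked in this way by chance at a rate of 1 in 20.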

How the results depend on the processing

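Apart from leaving out mice, 177 of the recomputed values of the 3 genes counted as unchanged, 6 newly passed the threshold and 1 no longer did. A tested value counted as unchanged when it kept its direction and side of the threshold. The 177 also hold the WT log2 differences, which have no test and so no threshold. These kept their direction and moved by less than the spread between mice under every alternative. The cause of the shifts was not tested. B3galt2 in BATKO against CTRL at 4°C lost its call when only these groups were fitted (2.90, adjusted p = 0.123). The difference of the cold effect between genotypes passed for B3galt2 with DESeq2 (3.36, adjusted p = 0.0326) and with no filter (3.32, adjusted p = 0.0299). B3galt2 in BATKO against CTRL on HFD passed with DESeq2 (1.27, adjusted p = 0.00319) and with no filter (1.28, adjusted p = 1.12e-05). With no filter, B3galt2 also passed in BATKO against CTRL on Chow (0.96, adjusted p = 0.00233) and in BATKO on HFD against Chow (0.80, adjusted p = 0.0347).

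Counts of all genes called differed between tools. With DESeq2 they were 649 for BATKO against CTRL at 4°C, 8 at 30°C, 652 for the difference of the cold effect, 873 for CTRL HFD against Chow, 226 for BATKO HFD against Chow, 9 for BATKO against CTRL on HFD and 33 on Chow, against 286, 1, 149, 509, 9, 0 and 0 with edgeR. With no filter they were 1280 for CTRL HFD against Chow, 336 for BATKO HFD against Chow, 59 for BATKO against CTRL on HFD, 290 on Chow and 216 for the difference of the diet effect (0 with the filter). With only the compared groups they were 61 for BATKO against CTRL at 4°C, 321 for CTRL HFD against Chow, 66 for BATKO HFD against Chow and 114 for BATKO against CTRL on Chow.

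Leaving out each mouse in turn, B3galt2 ranged from -5.11 to -2.32 in CTRL 4°C against 30°C and kept its call each time, with the lowest value without mouse 5. It ranged from 2.39 to 5.19 in BATKO against CTRL at 4°C (53 to 565 genes called) and from 2.84 to 5.65 for the difference of the cold effect (5 to 907 genes called), where it passed in 3 of 16 fits, without CTRL 4°C mouse 5, BATKO 4°C mouse 11 or BATKO 30°C mouse 13. Values near 0 changed sign: Pgrmc1 ranged from -0.091 to 0.11 in CTRL 4°C against 30°C, from -0.034 to 0.14 in BATKO against CTRL on HFD and from -0.22 to 0.042 for the difference of the diet effect, and Maged2 from -0.16 to 0.071 in BATKO against CTRL on HFD. Genes called ranged from 0 to 1 in BATKO 24 h after TH, from 166 to 716 in CTRL HFD against Chow, from 0 to 9 in BATKO HFD against Chow and from 0 to 10 in BATKO against CTRL on HFD. No paired analysis was possible because the groups compared share no mouse numbers: the numbers in the labels are mouse numbers, and those that recur in the separate experiments name different mice. Depth limits Maged2 (8 to 106 counts per mouse) and B3galt2 in CTRL 4°C mice.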

Other observations

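The genes whose profiles lay nearest to B3galt2 in the hormone experiment moved in both directions with cold. In CTRL mice at 4°C against 30°C, Triqk fell by 3.13 on the log2 scale (adjusted p = 5.67e-05) and Hcar2 by 3.21 (adjusted p = 6.92e-05), while Adrb3 rose by 1.12 (adjusted p = 0.00704) in edgeR's quasi-likelihood test, and Gpat3 differed by -0.04 (adjusted p = 0.906). In BATKO mice Triqk fell by 1.29 (adjusted p = 0.00927) and Hcar2 by 1.07 (adjusted p = 0.0235), while Adrb3 rose by 0.86 (adjusted p = 0.0192) and Gpat3 by 0.86 (adjusted p = 0.00173). D430020J02Rik was not tested in the temperature experiment. On HFD, Adrb3 rose in CTRL mice by 1.22 (adjusted p = 0.00688). The genes nearest to Maged2 moved in both directions as well. In CTRL mice in the cold, Rnf122 fell by 2.56 (adjusted p = 7.79e-05), Angptl4 fell by 2.06 (adjusted p = 6.35e-05) and Nans fell by 1.30 (adjusted p = 0.000574), Galnt18 rose by 1.00 (adjusted p = 0.00466), and Cavin1 differed by 0.01 (adjusted p = 0.98). In BATKO mice Angptl4 had a log2 difference of -2.1 (adjusted p = 2.75e-05), Rnf122 fell by 1.18 (adjusted p = 0.0059) and Nans fell by 1.04 (adjusted p = 0.00127), while Galnt18 differed by 0.20 (adjusted p = 0.51) and Cavin1 by -0.25 (adjusted p = 0.347).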
